A study of Mus musculus with 4 samples.

Results

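A set of serine proteases, most of them anchored in the membrane, was followed together with the aspartic protease SASPase and Kunitz-type inhibitors in cultured keratinocytes (KCs), the cells that build the epidermis. The set was chosen by gene symbol as 9 genes, proteases of filaggrin processing and channel activation with their inhibitors and the secreted protease Hgfac: Asprv1, St14, Prss8, Tmprss4, Prss22, Prss27, Hgfac, Spint1 and Spint2. All 9 were among the 25814 genes listed for each library, and all 9 were among the 12614 genes that passed the filter on low read counts. Asprv1 and Prss27 are also among the genes that the study itself lists from these libraries, so their direction here is not independent evidence.

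Tail skin of adult 129/sv mice gave the KCs, which were grown without treatment in serum-free medium with 0.06 mM calcium. Polyadenylated RNA was sequenced from 2 wild-type (WT) libraries and from 2 libraries labelled Nfat5-/-, in which the gene for the osmosensitive transcription factor NFAT5 is disrupted in the whole animal. The WT animals were siblings of the Nfat5-/- animals, and tails of both genotypes travelled overnight on ice before the cells were prepared. By the account of the study, animals of this line have defects of the kidney and of salt balance. Only 2 libraries stand for each genotype, and p-values measure the spread among these 4 libraries.

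The epidermal barrier depends on proteases that are made as inactive precursors and switch each other on at the cell surface. Matriptase (St14) activates prostasin (Prss8) in epithelia, and both are held in check by HAI-1 (Spint1) and HAI-2 (Spint2), membrane proteins that carry Kunitz inhibitor domains. SASPase (Asprv1) is a retroviral-like aspartic protease of the granular layer that cleaves profilaggrin linkers, and loss of matriptase, prostasin or SASPase disturbs filaggrin processing and skin hydration. Tmprss4, like matriptase and prostasin, can raise the activity of the epithelial sodium channel when they are expressed together.

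The libraries held between 16219445 and 23494436 gene reads, with 15825 to 16330 genes carrying at least 1 read, so the smallest level that 3 reads can show was 0.128 to 0.185 CPM (counts scaled to library size). That floor covers counting error only. Nfat5 itself had 408 and 929 reads in the WT libraries and 715 and 770 in the libraries labelled Nfat5-/- (log2 fold change 0.09, edgeR adjusted p = 0.913), so its RNA did not separate the labels. The labels do not give which bases of the gene were removed, so whole-gene reads may not show the disruption. Within these libraries, every direction below rests on the labels. Measurements of the study made outside these libraries are not used here. The libraries of 1 genotype were not copies of each other, since their chi-square per degree of freedom over genes was 13.3 in WT and 13.8 in Nfat5-/-. The basal KC markers summed to 10928 to 12604 RPKM (exon reads scaled to the length of the exons and the depth of mapping) in WT and 10882 to 12390 RPKM in Nfat5-/-, above every other cell type list given at the end.

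Of the 9 genes, 2 passed the test between genotypes, Asprv1 and Tmprss4, and both were higher in the Nfat5-/- libraries. The test was edgeR's quasi-likelihood test on gene reads, with p-values adjusted over the whole table and called under 0.05. Over all 12614 genes it called 1.27% in either direction and 0.943% as higher. At an unadjusted p under 0.05 the set had 6 genes, beside 14.6% of all genes. Hgfac, among these 6 and the lower gene of the next count, passed the filter on low counts only through its WT libraries. In RPKM the libraries of the genotypes did not overlap for 8 of the 9 genes, 7 of them higher and 1 lower in Nfat5-/-, beside 46.5% of all genes in either direction and 21.6% in the higher direction. Under a rule made here on the RPKM scale, a mean RPKM that differs 2-fold without overlap and reaches 2 RPKM on the higher side, 3 of the 8 genes that reached this level were higher (Asprv1, Tmprss4 and Prss27) and 0 were lower, beside 1.67% of all genes that reached it counted as higher. Asprv1 and Prss27 are on the study's own 2-fold list from these libraries, so this count was partly fixed in advance. The median log2 fold change of the 9 genes was 0.36, against -0.01 for all genes tested. Their median absolute log2 fold change was 0.54, against 0.16.

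**Figure D1:**
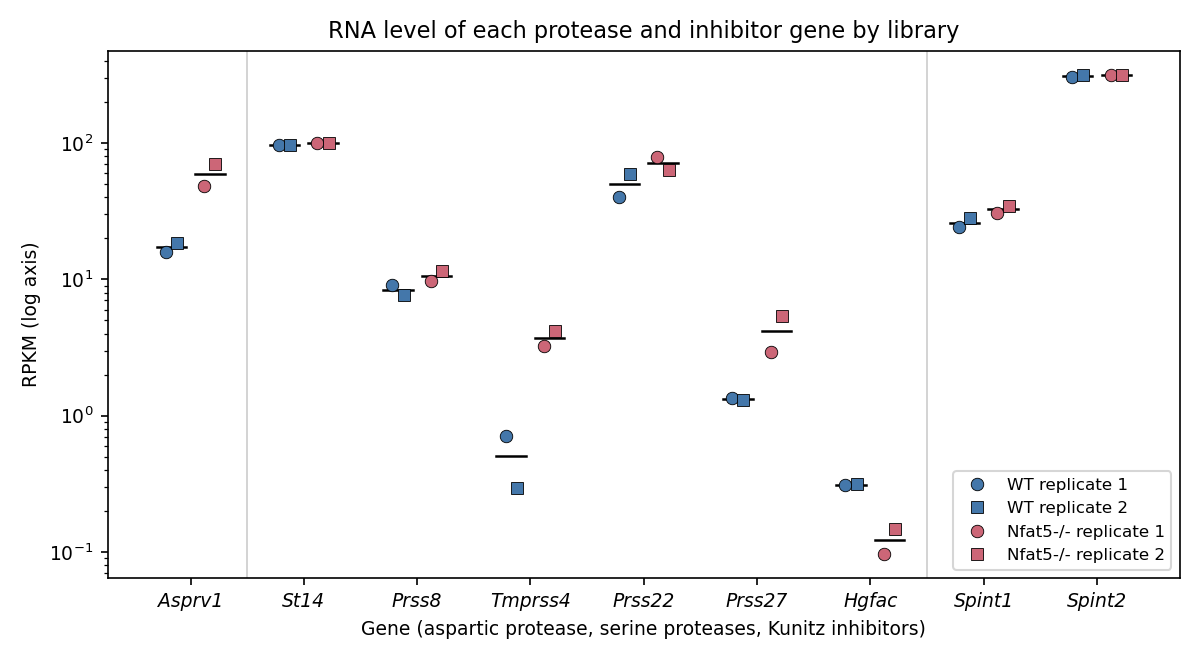
RNA level of each gene in each library, in RPKM on a log axis, with WT libraries in blue, Nfat5-/- libraries in red, replicate 1 as circles, replicate 2 as squares and a bar at each group mean. The levels span from about 0.0969 RPKM for Hgfac to 317 RPKM for Spint2, and the red points of Asprv1, Tmprss4 and Prss27 lie clear above the blue ones.

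Asprv1 (ENSMUSG00000033508), which encodes SASPase, lies on chromosome 6 from 86628164 to 86629710 of GRCm38 on the plus strand and is listed with 1 exon of 1547 bases. Its RNA level was 15.7 and 18.6 RPKM in the WT libraries and 48.7 and 70.3 RPKM in the Nfat5-/- libraries. Both Nfat5-/- values thus stood above both WT values, and the pair of Nfat5-/- libraries lay further apart than the WT pair. The group means were 17.2 ± 2.03 and 59.5 ± 15.3 RPKM (SD, n = 2 each), and the fitted difference was 1.81 on the log2 scale (SE 0.20; edgeR adjusted p = 0.0159), that is 3.51-fold with a 95% interval of 2.55 to 4.83. The call rested on 405 and 638 reads against 1815 and 2076, all of them in the single exon and all placed at 1 site. It held under each of the 14 alternative settings, with log2 fold changes between 1.504 and 2.07. In 4 of these settings a library was left out, so the spread came from the 2 libraries of the other genotype alone. The call came closest to the threshold without Nfat5-/- replicate 2, at a log2 fold change of 1.504. In bulk RNA, more cells that make a transcript and more transcript in each cell cannot be told apart.

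The DNA before the start of Asprv1 is shown beside that of the 2 inhibitor genes: Asprv1 as the called gene that the promoter table holds, and the inhibitors as the 2 genes with the most CG pairs of the 5 matched. Each sequence is the 250 bases before the transcript start on the strand of the gene, from RefSeq on GRCm38.p6, at chr6:86627924-86628173 (plus strand) for Asprv1, chr2:119237110-119237359 (plus strand) for Spint1 and chr7:29281978-29282227 (minus strand) for Spint2. The transcript starts are those of RefSeq. By the deposited coordinates Asprv1 starts at 86628164, inside its window. Prss27, counted below, starts at 24038144, also inside its window. Capitals mark each CG.
Asprv1: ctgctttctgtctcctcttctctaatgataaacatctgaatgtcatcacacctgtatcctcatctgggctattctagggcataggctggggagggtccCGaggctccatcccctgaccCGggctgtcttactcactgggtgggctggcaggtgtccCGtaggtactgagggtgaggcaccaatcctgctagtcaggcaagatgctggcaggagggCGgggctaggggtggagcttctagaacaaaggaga
Spint1: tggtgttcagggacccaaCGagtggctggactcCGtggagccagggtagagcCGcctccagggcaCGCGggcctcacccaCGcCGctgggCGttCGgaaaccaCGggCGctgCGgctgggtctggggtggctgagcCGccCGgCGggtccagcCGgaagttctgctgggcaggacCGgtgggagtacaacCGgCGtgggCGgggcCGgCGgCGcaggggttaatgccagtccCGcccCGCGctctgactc
Spint2: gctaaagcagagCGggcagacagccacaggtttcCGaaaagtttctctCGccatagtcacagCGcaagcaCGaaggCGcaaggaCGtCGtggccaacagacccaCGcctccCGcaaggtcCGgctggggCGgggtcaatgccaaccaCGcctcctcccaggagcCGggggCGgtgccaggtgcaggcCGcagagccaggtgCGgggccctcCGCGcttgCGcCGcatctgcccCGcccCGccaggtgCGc
The Asprv1 window held 4 CG pairs, the Spint1 window 26 and the Spint2 window 24. Over the 32851 promoters of the RefSeq table the median was 6, with 44.4% of windows at or below the Asprv1 count, 91.4% at or below that of Spint1 and 89.3% at or below that of Spint2. Prss27 had 3 CG pairs and Hgfac 1, while Prss8, Prss22, St14 and Tmprss4 had no entry in that table, so 5 of the 9 genes were matched. The letters TGGAAA, the core bound by NFAT-type Rel domains, were searched on both strands and occurred in 0 of the 5 windows, beside 18.6% of all promoters. The AP-1 letters TGANTCA occurred in 0 of the 5, beside 6.75% of all promoters. Missing letters in so short a window say nothing about binding elsewhere.

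Among the serine proteases that activate channels and other proteases, St14, the gene of matriptase, had the highest RNA level of the 6. St14 (ENSMUSG00000031995) lies on chromosome 9 from 31089402 to 31131853, on the minus strand, and is listed with 24 exons. It had 97.5 and 97.1 RPKM in WT against 100.4 and 100.1 RPKM in Nfat5-/-. The libraries of a genotype were nearly equal, and the step between genotypes was 0.06 on the log2 scale (SE 0.09; edgeR adjusted p = 0.821). The interval of the fold, 0.894 to 1.22, leaves out any change of 2-fold in either direction at this depth of 5557 to 8282 reads.

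Prss8 (ENSMUSG00000030800) encodes prostasin, the glycosylphosphatidylinositol-anchored protease that works in one cascade with matriptase. It lies on chromosome 7 from 127925716 to 127930104, on the minus strand, with 11 listed exons, and its last bases overlap those of Kat8. Its level was 9.03 and 7.68 RPKM in WT against 9.77 and 11.5 RPKM in Nfat5-/-. The groups did not overlap, yet the gap between them was smaller than the spread within either, and the log2 fold change of 0.36 (SE 0.16) did not pass, with an edgeR adjusted p of 0.366 and a fold interval of 0.987 to 1.67. Kat8 itself was at 5.18 ± 0.0857 RPKM in WT against 4.56 ± 0.662 RPKM in Nfat5-/- (SD, n = 2 each). No source says that strand was used in counting, so reads from the shared end cannot be assigned to either gene with certainty.

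Tmprss4 (ENSMUSG00000032091), a type II transmembrane protease that can activate the epithelial sodium channel, had the largest fold change of the 9 genes. It lies on chromosome 9 from 45172726 to 45204092, on the minus strand, with 19 listed exons. Its RNA was scarce, at 0.711 and 0.297 RPKM in WT against 3.25 and 4.15 RPKM in Nfat5-/-. The highest WT value was well under the lowest Nfat5-/- value, while the WT pair differed more from each other, in proportion, than the Nfat5-/- pair. The group means were 0.504 ± 0.293 and 3.70 ± 0.634 RPKM (SD, n = 2 each), and the fitted log2 fold change of 2.93 (SE 0.39) had an edgeR adjusted p of 0.0251, that is 7.63-fold with an interval of 4.08 to 14.3. The read counts behind it were 28 and 15 in WT and 183 and 184 in Nfat5-/-. Only 82.3% of its exon reads were placed at a single site, the lowest share of the set, and the gene overlaps BC049352, which was listed at 0 RPKM in every library. When uniquely placed reads alone were used, the log2 fold change was 2.82 and the edgeR adjusted p was 0.0187. The call was lost without either Nfat5-/- library, at an edgeR adjusted p of 0.0981 without replicate 1 and 0.184 without replicate 2, with log2 fold changes of 3.10 and 2.72. The size of the change was less certain than its direction. The log2 fold change was 3.69 without WT replicate 1 and 2.37 without WT replicate 2, and edgeR called both. On the log2(RPKM + 1) scale, which understates changes of scarce transcripts, limma-trend gave 1.65 (adjusted p = 0.0123).

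Prss22 and Prss27 encode tryptase-like proteases, brain-specific serine protease 4 and marapsin, and lie 40.0 kb apart on chromosome 17. Prss22 (ENSMUSG00000045027) spans 23993535 to 23998100 on the minus strand with 6 listed exons, and Prss27 (ENSMUSG00000050762) spans 24038144 to 24045954 on the plus strand with 6. Prss22 was the more abundant, at 40.1 and 59.4 RPKM in WT against 79.4 and 63.7 RPKM in Nfat5-/-. Its groups came close to touching, since WT replicate 2 and Nfat5-/- replicate 2 differed little. The log2 fold change of Prss22, 0.54 (SE 0.19), had an edgeR adjusted p of 0.261 and a fold interval of 1.07 to 1.98. The WT libraries pulled it apart, with a log2 fold change of 0.30 without WT replicate 1 and 0.85 without WT replicate 2. With all 4 libraries and no filter on low counts, Prss22 had an edgeR adjusted p of 8.2e-04. That fit called 1137 genes rather than 160. It gave Asprv1 an edgeR adjusted p of 4.4e-37 at the log2 fold change of the main fit, 1.81. The unfiltered p-values are thus not on the footing of the main fit.

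Prss27 was at 1.34 and 1.30 RPKM in WT against 2.95 and 5.35 RPKM in Nfat5-/-. Both Nfat5-/- libraries were above both WT libraries, but they differed from each other by more than the lower one differed from WT. The group means were 1.32 ± 0.033 and 4.15 ± 1.70 RPKM (SD, n = 2 each). The log2 fold change of Prss27 was 1.59 (SE 0.36) at an edgeR adjusted p of 0.0956 and a fold interval of 1.69 to 5.38, on 30 and 39 reads against 90 and 132. DESeq2 called it, with an adjusted p of 0.0224. Kctd5, the tested gene next to Prss27, had 43.0 RPKM in WT against 46.6 RPKM in Nfat5-/- with a log2 fold change of 0.14 and an edgeR adjusted p of 0.580.

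Hgfac (ENSMUSG00000029102) encodes the hepatocyte growth factor activator, a secreted protease made mainly by liver and a known target of HAI-1. It lies on chromosome 5 from 35041509 to 35048461, on the plus strand, with 17 listed exons. Its RNA was close to the limit of detection, with 11 and 17 reads in WT and 5 and 6 in Nfat5-/-, or 0.309 and 0.316 RPKM against 0.0969 and 0.147 RPKM. It was the gene of the set with lower values in Nfat5-/-, without overlap. The log2 fold change of -1.45 (SE 0.51) had an edgeR adjusted p of 0.262 and an interval from -2.64 to -0.26, so a difference was not shown at this depth. Hgfac passed the filter on low counts only through the WT libraries, where it was high, so its direction is not independent of the filter.

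**Figure D2:**
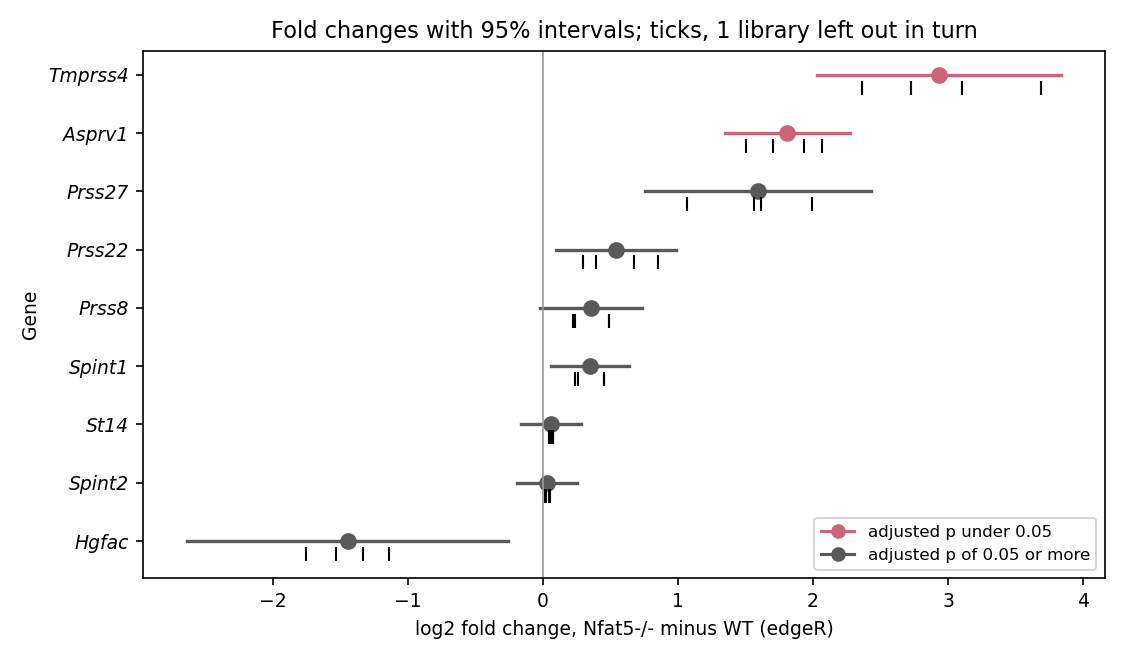
Log2 fold change of each gene, Nfat5-/- minus WT, from edgeR, as points with 95% intervals, and black ticks for the value with each of the 4 libraries left out in turn. Tmprss4 (2.93) and Asprv1 (1.81) are marked in red as past the threshold, St14 and Spint2 sit at 0.06 and 0.03, and the ticks of each gene stay on 1 side of 0.

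Neither Kunitz inhibitor passed the test. Spint2 (ENSMUSG00000074227), on chromosome 7 from 29256323 to 29281912 on the minus strand with 10 listed exons, encodes HAI-2 and was the most abundant gene of the set. Its level was 305 and 317 RPKM in WT against 316 and 315 RPKM in Nfat5-/-. The Nfat5-/- values lay between the WT values, the only overlap among the 9 genes, and the log2 fold change of 0.03 (SE 0.09) had an edgeR adjusted p of 0.915 and a fold interval of 0.876 to 1.19. Spint1 (ENSMUSG00000027315), on chromosome 2 from 119237362 to 119249527 on the plus strand with 15 listed exons, encodes HAI-1. It had 24.2 and 28.0 RPKM in WT against 30.7 and 34.8 RPKM in Nfat5-/-. All Nfat5-/- values were above the WT values, by a log2 fold change of 0.35 (SE 0.12) that did not pass (edgeR adjusted p = 0.267, fold interval 1.04 to 1.56).

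Per length of transcript, the order of levels was much alike in the genotypes. In WT it ran Spint2, St14, Prss22, Spint1, Asprv1, Prss8, Prss27, Tmprss4 and Hgfac, and among neighbours in this order the libraries of Tmprss4 and Hgfac alone overlapped. In Nfat5-/- Asprv1 stood above Spint1, with 59.5 against 32.7 RPKM, and its libraries overlapped those of Prss22. Tmprss4 had come level with Prss27, at 3.70 against 4.15 RPKM with overlapping libraries, and stood clear of Hgfac at 0.122 RPKM.

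Summed over the 6 serine proteases, the RNA level was 149.0 and 166 RPKM in WT against 196 and 185 RPKM in Nfat5-/-. St14 made up 65.4% and 58.5% of this sum in WT and 51.3% and 54.1% in Nfat5-/-. Prss22 made up 26.9% and 35.8% in WT and 40.5% and 34.4% in Nfat5-/-. St14 and Prss22 thus supplied most of the RPKM summed over these 6 genes in every library. Tmprss4, the gene with the largest fold change, supplied 0.179% to 0.477% of the sum in WT and 1.66% to 2.24% in Nfat5-/-.

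**Figure D3:**
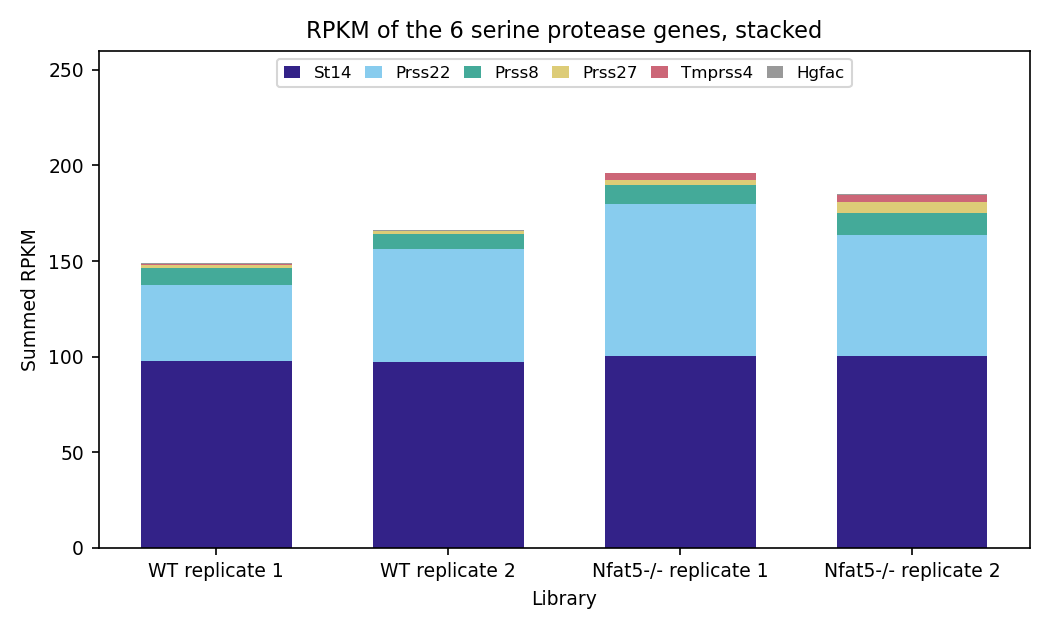
RPKM of the 6 serine protease genes stacked for each library, starting at 0. St14 keeps nearly the same height in all 4 libraries (97.1 to 100.4 RPKM), Prss22 is the next largest block, and Tmprss4 and Prss27 are thin blocks that are wider in the Nfat5-/- libraries.

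The balance of inhibitor RNA to its target proteases was read as a ratio of RPKM within each library. Spint1 plus Spint2 over St14 plus Prss8 was 3.09 and 3.29 in WT and 3.15 and 3.14 in Nfat5-/-, with the Nfat5-/- values inside the WT range (two-sided exact permutation p = 1). Over all 6 serine proteases the ratio was 2.21 and 2.08 in WT and 1.77 and 1.89 in Nfat5-/-, without overlap. Spint1 over St14 was 0.248 and 0.288 in WT and 0.305 and 0.347 in Nfat5-/-, and Spint2 over Prss8 was 33.8 and 41.3 in WT and 32.3 and 27.5 in Nfat5-/-, again without overlap. Each of these last 3 ratios had a two-sided exact permutation p of 0.333, which is the smallest that 2 libraries against 2 can give, so this test could not reach 0.05 for any of the 4 ratios compared.

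Other genes of the same pathway were read from 4 lists. Of 24 other membrane-anchored or clustered serine proteases, 10 were tested and edgeR called 0, with 4 at an unadjusted p under 0.05 (all genes tested, 14.6%), 9 with a positive and 1 with a negative log2 fold change, and a median of 0.62. The most abundant of them was Prss23, a secreted serine protease, at 54.1 and 28.0 RPKM in WT against 28.1 and 54.6 RPKM in Nfat5-/-. Its libraries differed more within a genotype than the genotypes did (log2 fold change 0.04, edgeR adjusted p = 0.978). Next came Tmprss11e, a protease of the HAT/DESC family found in squamous epithelia, at 7.43 and 8.70 RPKM in WT against 21.0 and 9.58 RPKM in Nfat5-/- (log2 fold change 0.93, edgeR adjusted p = 0.243). There the high value came from Nfat5-/- replicate 1 alone. The other genes at an unadjusted p under 0.05 were Tmprss2, Tmprss11b and Tmprss11f, all with higher means in Nfat5-/-. Tmprss11f was scarce, with 10 and 5 gene reads in WT against 22 and 21 in Nfat5-/-. Tmprss9, counted among the positive ones, had 16 to 24 gene reads but at most 0.0116 RPKM. Genes named for their unadjusted p, here and in the next lists, were chosen after their values were seen. In 6 of the 24 genes no library had an exon read.

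Filaggrin and the enzymes that process it gave 10 tested of 13 listed genes, 0 calls by edgeR, 3 at an unadjusted p under 0.05, 7 positive and 3 negative log2 fold changes, and a median of 0.07. Capn1, the large subunit of calpain 1, was the most abundant, at 89.2 and 93.6 RPKM in WT against 90.05 and 101.3 RPKM in Nfat5-/- (edgeR adjusted p = 0.771). Furin, a proprotein convertase that cuts the profilaggrin N-terminus, was at 36.7 and 42.9 RPKM in WT against 36.2 and 44.9 RPKM in Nfat5-/- (edgeR adjusted p = 0.913). Both genes had ranges that overlapped between the genotypes. Among the 3 genes at an unadjusted p under 0.05, beside 14.6% of all genes, Casp14, a protease that degrades filaggrin, was at 0.754 and 1.09 RPKM in WT against 1.99 and 2.67 RPKM in Nfat5-/- (log2 fold change 1.35, edgeR adjusted p = 0.0811). Klk5, a kallikrein of the horny layer, was at 0.1801 and 0.203 RPKM in WT against 0.528 and 0.863 RPKM in Nfat5-/- (log2 fold change 1.83, edgeR adjusted p = 0.172). With 4 and 6 gene reads in WT against 17 and 22 in Nfat5-/-, Klk5 passed the filter only through the Nfat5-/- libraries. Its direction is thus not independent of the filter. Ggct went the other way, with a log2 fold change of -0.42 (edgeR adjusted p = 0.275).

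Flg, the substrate of this pathway, depended on which reads were counted, because 90.7% of its gene reads were listed as intron reads. The exon reads of Flg numbered 24 and 44 in WT against 77 and 159 in Nfat5-/-, while the intron reads numbered 626 and 828 in WT against 881 and 617 in Nfat5-/-. Exon reads were thus without overlap and intron reads were not. On gene reads the log2 fold change was 0.06 (edgeR adjusted p = 0.858), and on exon reads it was 1.74 (SE 0.47, edgeR adjusted p = 0.143), neither past the threshold. The Flg level in RPKM was low, at 0.201 and 0.277 in WT and 0.446 and 1.16 in Nfat5-/-.

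The proteins cut by these proteases, among them sodium channel subunits, the receptor PAR2 and growth factors, gave 12 tested of 14 listed genes, 0 calls by edgeR, 4 at an unadjusted p under 0.05, 6 positive and 6 negative log2 fold changes, and a median of 0.02. Plau, the urokinase gene, was at 365 and 707 RPKM in WT against 634 and 642 RPKM in Nfat5-/- (log2 fold change 0.27, edgeR adjusted p = 0.695). Epcam, an adhesion protein that matriptase cleaves, was at 307 and 379 RPKM in WT against 348 and 300.0 RPKM in Nfat5-/- (log2 fold change -0.06, edgeR adjusted p = 0.871). In both, the libraries of the genotypes overlapped. Of the 4 genes at an unadjusted p under 0.05, again beside 14.6% of all genes, Scnn1a, the alpha subunit of the epithelial sodium channel, was at 0.422 and 0.142 RPKM in WT against 0.764 and 0.951 RPKM in Nfat5-/- (log2 fold change 1.62, edgeR adjusted p = 0.192). Plaur, the urokinase receptor gene, was at 40.4 and 50.9 RPKM in WT against 72.7 and 70.0 RPKM in Nfat5-/- (log2 fold change 0.66, edgeR adjusted p = 0.0647). The other two, Mst1 and Cdcp1, had log2 fold changes of -0.79 and -0.25 (edgeR adjusted p = 0.256 and 0.303).

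Among 14 other Kunitz-type and related inhibitors, 7 were tested and 1 was called, Serpine2, beside 1.27% of all genes, with 5 positive and 2 negative log2 fold changes and a median of 0.24. Serpine2 encodes protease nexin-1, a serpin known to inhibit prostasin. It was at 3.85 and 3.22 RPKM in WT against 8.22 and 11.3 RPKM in Nfat5-/-, without overlap, and it rose by 1.49 on the log2 scale (SE 0.21; edgeR adjusted p = 0.0252). The call was lost without either Nfat5-/- library. Aplp2, a membrane protein with a Kunitz domain, was the most abundant of the list at 217 and 251 RPKM in WT against 236 and 219 RPKM in Nfat5-/- (edgeR adjusted p = 0.942). App, the amyloid precursor gene, some of whose isoforms carry a Kunitz domain, was next by its mean over the 4 libraries, at 112 and 119 RPKM in WT against 125 and 163 RPKM in Nfat5-/-. Its groups did not overlap, and the log2 fold change of 0.34 (SE 0.15) did not pass (edgeR adjusted p = 0.346). In 5 of the 14 genes no library had an exon read.

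**Figure D4:**
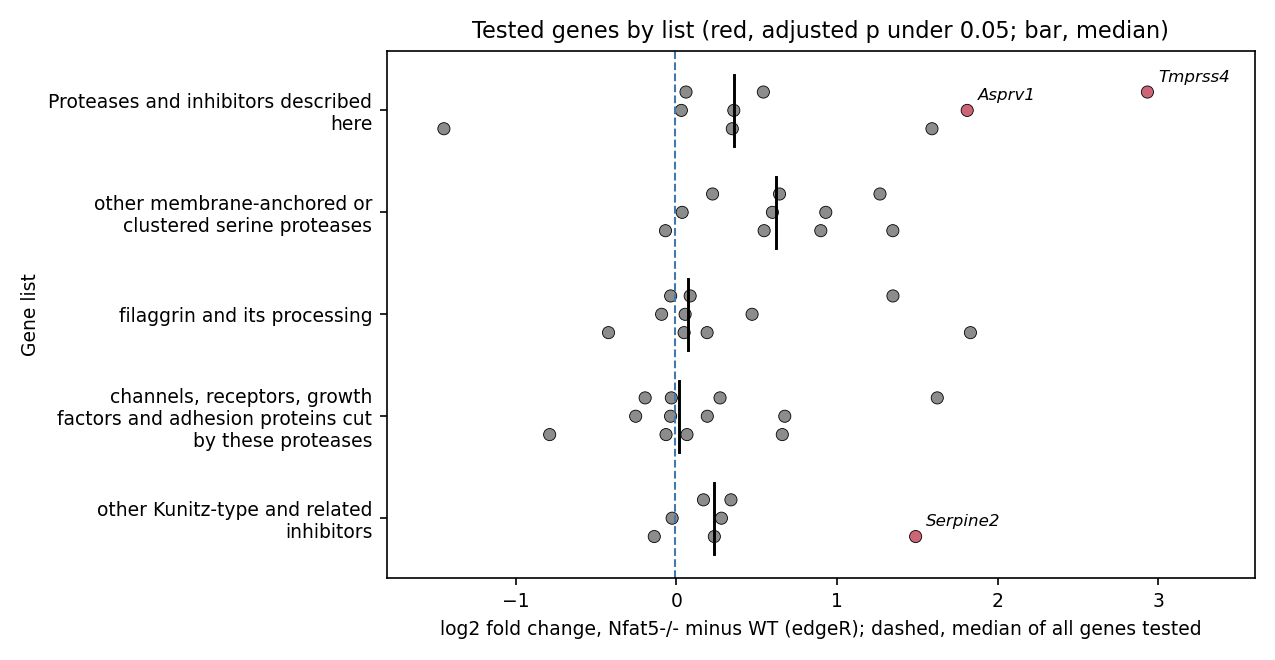
Log2 fold change, Nfat5-/- minus WT, of every tested gene of the set and of the 4 lists, with red points for genes past the edgeR threshold, a black bar at each list's median and a dashed line at the median of all genes tested (-0.01). The 3 red points are Asprv1, Tmprss4 and Serpine2, and the medians of the lists range from 0.02 to 0.62.

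The genes around the set were counted within 100 kb of each member by the deposited coordinates. Of 59 such genes 35 were tested, with a median log2 fold change of -0.03, and 2 of them were called, 5.71%, beside 1.27% of all genes tested. One of them, Mxd1, is named after its values were seen and is also among the genes the study names from these libraries. Mxd1, a MYC antagonist gene 17.3 kb from Asprv1, had 1.54 ± 0.441 RPKM in WT against 4.37 ± 0.964 RPKM in Nfat5-/- (SD, n = 2 each; log2 fold change 1.49, SE 0.25, edgeR adjusted p = 0.0450). The call was lost without either Nfat5-/- library.

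The genes nearest in pattern to Asprv1 were sought by the distance of their centred log2 CPM over the 4 libraries, among 9057 genes with a mean of at least 2 RPKM. They were Cdh2, the N-cadherin gene (distance 0.194), Prnd, the gene of the prion-like protein doppel (0.195), and Ifi27l2b (0.294). Prnd had 16.7 and 18.6 RPKM in WT against 50.7 and 62.6 RPKM in Nfat5-/-, levels close to those of Asprv1 itself. For St14 the nearest were Wbp2 (0.00352), Champ1 (0.00486) and Mrps21 (0.00839), each nearly level over the 4 libraries. With 4 libraries such likeness is a description only.

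Markers of other cell states and types moved with the labels and are given for the results above. The suprabasal KC markers, 6 genes, summed to 8.33 and 6.60 RPKM in WT against 18.0 and 24.7 RPKM in Nfat5-/-, of which Krtdap was called higher and made up most of the difference, at 2.82 and 1.63 RPKM against 10.7 and 14.2 RPKM. Krt1, Ivl, Lor and Flg were also higher in RPKM in Nfat5-/- without overlap, and none of them passed. Lor was at 2.54 and 2.59 RPKM in WT against 3.94 and 6.07 RPKM in Nfat5-/- (edgeR adjusted p = 0.134). Krt10 alone went the other way, at 0.854 and 0.684 RPKM in WT against 0.5499 and 0.520 RPKM in Nfat5-/-. It did not pass (edgeR adjusted p = 0.547). The simple-epithelium keratins, 4 genes, summed to 407 and 673 RPKM in WT against 1494 and 1680 RPKM in Nfat5-/-, with 3 called higher. The smooth muscle list, 5 genes led by Acta2 and Tagln, summed to 184 and 151 RPKM in WT against 518 and 819 RPKM in Nfat5-/-, with all 4 of its tested genes called higher, while Des reached at most 0.0199 RPKM. The melanocyte list, 5 genes, summed to 7.45 and 7.08 RPKM in WT against 2.05 and 2.90 RPKM in Nfat5-/-, with Tyrp1 called lower. Fibroblast (0.409 to 1.13 RPKM over 6 genes), immune (2.08 to 3.73 RPKM over 5) and endothelial (0.528 to 0.751 RPKM over 3) lists were low in all libraries with 0 calls by edgeR, and of the 4 mast cell markers Cpa3, Mcpt4 and Tpsb2 were listed at 0 RPKM in every library. The part of these markers in the changes of Asprv1, Tmprss4 and Serpine2 was not tested.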

How the data were processed

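Polyadenylated RNA of 4 KC libraries was analysed, 2 labelled WT and 2 labelled Nfat5-/-, grouped by the sample titles. The authors trimmed and aligned the reads to GRCm38 with the CLC Genomics Workbench at default settings and deposited, for each gene, raw read counts (whole gene, exon, uniquely placed exon, intron), which are not normalized. They also deposited RPKM values, that is exon reads scaled to exon length and mapped reads, written with decimal commas and read here as decimals. That software divided reads with several possible sites among them, so near-identical genes are uncertain.

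Gene reads were filtered with filterByExpr, which left 12614 of 25814 genes, scaled with TMM factors (0.980 to 1.01) and tested for genotype with the quasi-likelihood method of edgeR 4.0.16 in R 4.3.3. Two-sided p-values were adjusted by Benjamini-Hochberg over these genes, and those under 0.05 were called. An interval is the log2 fold change plus or minus its SE times the t quantile for 95%. DESeq2 1.42.0 and limma 3.58.1 (limma-trend on log2 RPKM with a pseudocount of 1 or 0.1) served as alternatives, beside other scaling factors, other filters, exon reads, uniquely placed exon reads, a replicate block, and each library left out. With a library left out, 1 genotype had 1 library, and the spread came from the other genotype alone. Ratios were tested with an exact permutation test in scipy 1.17.1. The procedure was tested on simulated data. Depth was 16219445 to 23494436 gene reads, and intervals and floors cover these libraries only, without molecular identifiers. The paired fit was tried because the titles share replicate numbers, but deviations of same-numbered libraries correlated at -0.065, so the numbers were not taken as pairs.

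All genes of the set are named. From each context list, every gene past the threshold and the 2 with the highest mean RPKM are named. The genes most like Asprv1 and St14 are the 3 nearest by Euclidean distance among tested genes with a mean of at least 2 RPKM. Members and lists were chosen with earlier results of these data known. Of the context genes, 1 written in a list, Tmprss11bnl, was not analysed here. One neighbouring gene past the threshold is not reported here.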

Additional observations from a re-analysis of the deposited data

How the results depend on the processing

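Of 124 values of the 9 genes with an adjusted p under up to 14 alternatives, 118 kept their direction and their side of the threshold, 2 lost a call, 4 gained one and 0 reversed. The lost calls were those of Tmprss4 without either Nfat5-/- library. The calls gained were Prss27 (DESeq2 adjusted p = 0.0224, and edgeR without a filter) and Prss22 (edgeR without a filter, and without WT replicate 2). The unfiltered p-values are far smaller at like folds, with an edgeR adjusted p of 4.4e-37 for Asprv1, so calls without a filter are not on the footing of the main fit. Hgfac was not tested with at least 10 reads in every library and had no adjusted p from DESeq2. The number of genes called, 160, became 1137 without a filter and 427 with DESeq2, and 16 to 478 with 1 library left out. Of the 9 genes, 2 were called, with 4 called without a filter, 3 with DESeq2, and 1 to 3 with 1 library left out. Among the context lists 1 gene was called, with 11 without a filter, 4 with DESeq2, and 0 to 5 with 1 library left out. Among neighbours 2 were called, with 4 without a filter, 1 with limma-trend on log2(RPKM + 1), and 0 to 3 with 1 library left out. The count of genes 2-fold apart in RPKM went from 3 to 1 at a floor of 5 RPKM, since Prss27 and Tmprss4 lie under it. The cause of the other shifts was not tested. The difference in the inhibitor ratio, -0.05, ranged from -0.15 to 0.05 with 1 library left out. With the replicate block, 132 genes were called, Asprv1 (edgeR adjusted p = 0.0076) and Tmprss4 (0.0378) among them, and 1 neighbour rather than 2. No call of the 9 genes changed under the block. Same-numbered libraries share only a number. With 2 libraries a group, and 28 and 15 WT reads for Tmprss4 and 5 and 6 Nfat5-/- reads for Hgfac, the folds of these scarce transcripts are the least precise.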
